A study of Mus musculus with 18 samples.

Results

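The enzymes that write and erase DNA methylation were followed in sorted bone marrow B cells of mice with and without an intact allele of Smchd1, a chromatin protein best known for its part in silencing the inactive X chromosome and imprinted gene clusters. The set comprised 7 genes of the 25965 rows of the deposited count tables, Dnmt1, Uhrf1, Dnmt3a, Dnmt3b, Tet1, Tet2 and Tet3, each found by its symbol in both tables. Every animal was a C57BL/6 mouse of 12 to 16 months with a Vav-Cre transgene (T/+), whose promoter drives Cre in blood-forming cells. The del/del animals had both Smchd1 alleles deleted (5 females and 4 males), and the controls were heterozygous del/+ animals with 1 deleted allele (5 females and 4 males), so no library came from a mouse with both alleles intact. RNA with polyA tails was sequenced from CD45.2+ B220+ Mac1- cells, 1 library per numbered animal, and the library numbers used here only name libraries.

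DNA methylation is copied after each round of replication by DNMT1, which UHRF1 recruits to newly made DNA by recognising its hemimethylated CpG sites. DNMT3A and DNMT3B place methyl groups on sites that had none, and TET1, TET2 and TET3 oxidise the methyl group so that it can be lost by dilution or by base excision repair. In B cell development DNMT1 is needed by dividing precursors, and the TET enzymes open enhancers of the immunoglobulin light chain genes. Transcripts of Dnmt1 and Uhrf1 belong to the replication programme that E2F factors drive.

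Promoter sequence is shown for the maintenance pair, Dnmt1 and Uhrf1, because their levels followed the cell cycle genes as described further on, and for Tet3, whose level did not. All 7 genes had RefSeq start sites in GRCm38.p6, with 12 windows in all that ran from 250 bases before to 50 bases after a start. An E2F-type motif was searched on both strands as TTTCCCGC, TTTCGCGC, TTTGCCGC or TTTGGCGC. It occurred in 744 of 32851 windows (2.26%), or in some window of 704 of 27025 genes (2.605%). Of the S phase and mitosis genes listed further on, 8 of the 30 with a window held it (26.7%), as did 2 of the 7 methylation genes, Dnmt1 and Uhrf1. The string CCAAT was searched in the same windows. It occurred in some window of 11096 of 27025 genes (41.1%). Of the S phase and mitosis genes 24 of 30 held it (80.0%), and of the 7 methylation genes 3 did (42.9%). Those 3 were Dnmt1, Uhrf1 and Tet3. Every E2F-type string contains a CG, and the shares were not matched for CpG content. The median CpG count of a gene's richest window was 8 over all genes, 22 for the S phase and mitosis genes and 33 for the 7. Only 2 of the 12 windows held the E2F-type motif, 1 of the 3 of Dnmt1 and 1 of the 2 of Uhrf1. In that Dnmt1 window the E2F-type matches lay 219 bases before and 33 bases after the start at chr9:20952623. In that Uhrf1 window the E2F-type match lay 185 bases before the start at chr17:56304313. The 30 bases around each of these Dnmt1 matches lie in annotated exon. The 250 bases before the Uhrf1 and Tet3 starts lie outside annotated exons. All are printed 5′ to 3′ on the strand of the gene, with each E2F-type match in capitals.
Dnmt1, chr9:20952824-20952853, minus strand: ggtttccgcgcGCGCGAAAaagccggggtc
Dnmt1, chr9:20952574-20952603, minus strand: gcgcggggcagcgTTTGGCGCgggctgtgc
Uhrf1, chr17:56304063-56304312, plus strand: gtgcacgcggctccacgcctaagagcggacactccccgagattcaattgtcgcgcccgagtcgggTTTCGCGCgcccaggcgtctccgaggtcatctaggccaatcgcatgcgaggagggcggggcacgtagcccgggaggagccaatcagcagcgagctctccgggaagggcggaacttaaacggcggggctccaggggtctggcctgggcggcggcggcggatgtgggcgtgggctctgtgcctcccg
Tet3, chr6:83441679-83441928, minus strand: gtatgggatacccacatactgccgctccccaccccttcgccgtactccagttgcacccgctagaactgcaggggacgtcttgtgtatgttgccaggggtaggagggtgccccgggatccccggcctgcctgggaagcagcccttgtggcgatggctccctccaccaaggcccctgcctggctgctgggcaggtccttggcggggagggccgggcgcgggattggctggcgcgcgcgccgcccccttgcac
A match is a string of letters and not a measured binding site, and the windows of the other 5 genes held none of the E2F-type strings. Among those 5, Dnmt3b also followed the cell cycle genes (r = 0.744). Whether either motif goes with that relation was not tested.

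Total counts ranged from 9788112 to 29405395 per library. Levels are given as CPM (counts scaled to depth) adjusted with TMM factors within the table of each sex. Smchd1, the deleted gene, was at 250 ± 16.2 CPM (SD, n = 5) in heterozygous and 142 ± 18.4 CPM (n = 5) in del/del females, and at 294 ± 21.4 and 176 ± 15.3 CPM (n = 4 each) in males. The genotypes did not overlap in either sex. The fitted ratio of del/del to heterozygous Smchd1 levels was 0.567 in females and 0.599 in males. With counts per gene, transcripts of a deleted allele and transcripts of cells with an undeleted allele cannot be told apart. The log2 fold change of del/del against heterozygous libraries was -0.82 in females (SE 0.09, adjusted p = 0.00119) and -0.74 in males (SE 0.08, adjusted p = 0.00888; edgeR quasi-likelihood test with Benjamini-Hochberg adjustment, as for every adjusted p of a fold change). In males, leaving out any 1 of 3 libraries raised the adjusted p just past the threshold: to 0.0525 at a log2 fold change of -0.75 for heterozygote 1, to 0.0540 at -0.70 for del/del animal 1, and to 0.0538 at -0.72 for del/del animal 3. All 8 genes of the B cell identity list, among them Cd79a, Pax5 and Ebf1, were detected in every library, with a summed level of 6920 to 8957 CPM. Markers of other blood cells were present too. The 11 myeloid genes summed to 974 to 5738 CPM, highest in del/del female 3 (4934 CPM) and del/del male 3 (5738 CPM). The sums were 253 to 1211 CPM for plasmacytoid dendritic cells, 399 to 1042 CPM for plasma cells, 83.2 to 879 CPM for erythroid cells and 52.0 to 160 CPM for T and NK cells. Most of the plasma cell sum was Irf4, with group means of 333 to 633 CPM. In the same list Prdm1 had group means of 4.25 to 10.1 CPM and Tnfrsf17 of 0.158 to 0.336 CPM. In bulk samples such as these, fewer cells of a type and less RNA per cell cannot be told apart.

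No methylation writer or eraser differed between the genotypes past the threshold of an adjusted p of 0.05. All 7 genes passed the low-count filter in every fit. In females 0 of the 7 were called, against 0.252% of the 13501 genes tested. In males it was 0 of 7, against 0.119% of 13413, and over all 18 libraries with sex as a term 0 of 7, against 0.556% of 14017. At an unadjusted p under 0.05 there was 1 of 7 in females (Dnmt3b, background 4.3%), 1 of 7 in males (Tet1, background 3.34%) and 2 of 7 over all libraries (Tet1 and Dnmt3a, background 6.76%). For none of the 7 did the genotypes separate without overlap in either sex, which 1.05% of tested genes did in females and 1.97% in males.

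**Figure D1:**
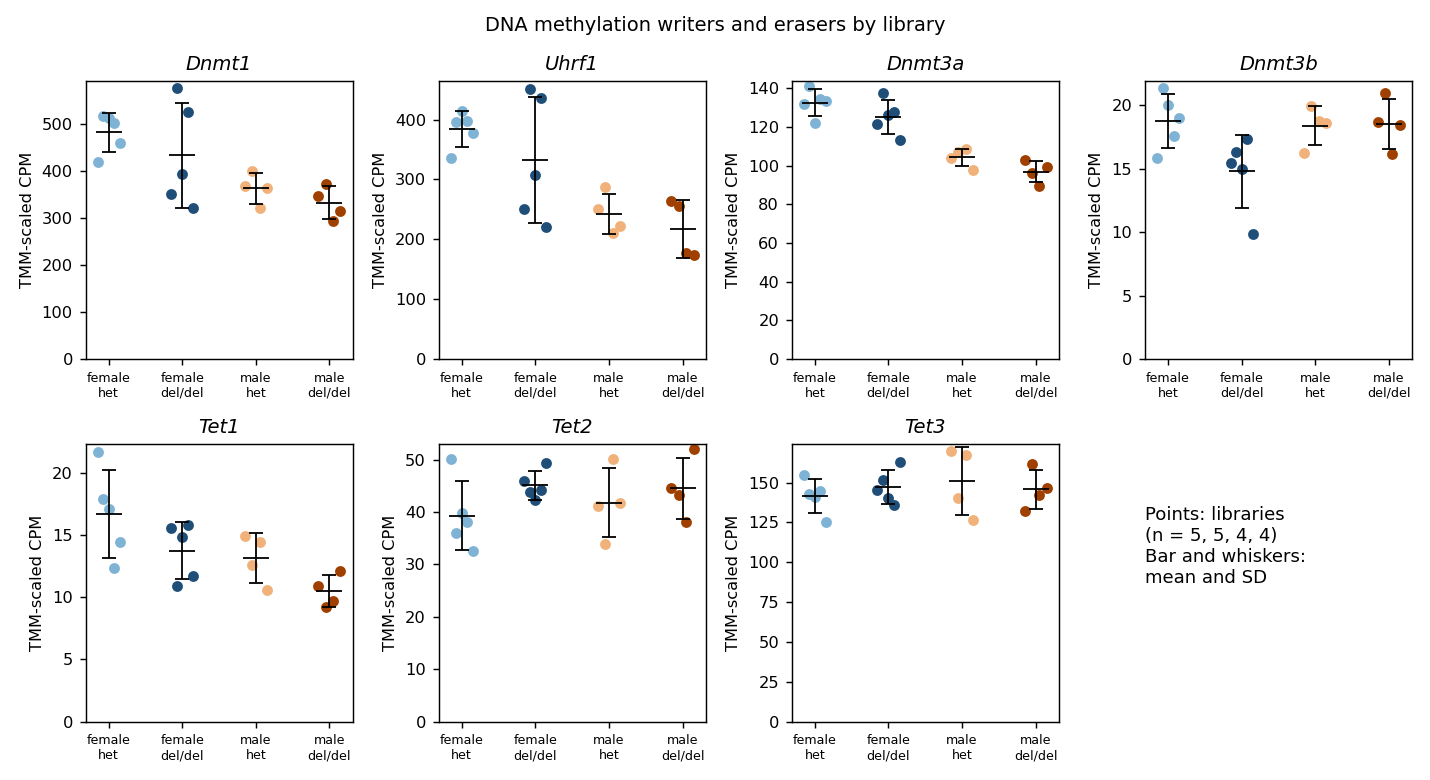
Level of each DNA methylation gene in TMM-scaled CPM (vertical axes, each from 0), with a point per library, for 5 heterozygous and 5 del/del female and 4 heterozygous and 4 del/del male libraries, and the mean and SD as a bar with whiskers. The genotypes overlap for every gene, and the female del/del libraries are the most spread for Dnmt1 (322 to 578 CPM).

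Dnmt1, the maintenance methyltransferase (chr9:20907206-20959888, minus strand), was at 420, 517, 514, 502 and 460 CPM in the heterozygous females and at 352, 578, 395, 526 and 322 CPM in the del/del females. Female del/del libraries 1, 3 and 5 were below every heterozygous female, whereas libraries 2 and 4 were above all of them. The del/del SD was accordingly 112 CPM around a mean of 435, against 42.0 CPM around 483 in heterozygous females. In males the heterozygous libraries were at 369, 401, 321 and 365 CPM and the del/del libraries at 348, 373, 295 and 316 CPM, a difference of means smaller than the SD of either group. The log2 fold change was -0.15 in females (SE 0.15, 95% interval -0.48 to 0.17, adjusted p = 0.975) and -0.13 in males (SE 0.09, interval -0.34 to 0.083, adjusted p = 0.9998). The female value was -0.27 without del/del library 2 and -0.061 without del/del library 5.

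Uhrf1, which brings DNMT1 to replicated DNA (chr17:56303321-56323486, plus strand), had a similar spread. It was at 335, 395, 415, 397 and 378 CPM in heterozygous females and at 250, 450, 308, 436 and 221 CPM in del/del females. Del/del libraries 1, 3 and 5 were again below, and libraries 2 and 4 above, all heterozygous females. In males it was at 250, 287, 210 and 222 CPM in heterozygotes and at 263, 256, 176 and 174 CPM in del/del libraries, where 2 del/del libraries were inside the heterozygous range and 2 below it. The log2 fold change was -0.21 in females (SE 0.18, interval -0.59 to 0.18, adjusted p = 0.975) and -0.16 in males (SE 0.16, interval -0.51 to 0.19, adjusted p = 0.9998). The female value was -0.33 without del/del library 2 and -0.091 without del/del library 5.

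Dnmt3a, the de novo methyltransferase that is often mutated in human clonal haematopoiesis (chr12:3806007-3914443, plus strand), varied little between libraries. It was at 132, 141, 122, 135 and 133 CPM in heterozygotes and 121, 137, 126, 128 and 113 CPM in del/del females, and at 104, 107, 108 and 97.9 CPM in heterozygotes and 103, 96.1, 89.5 and 99.0 CPM in del/del males. The groups overlapped in both sexes, and in each sex the lowest library was a del/del one. The log2 fold change was -0.08 in females (SE 0.07, unadjusted p = 0.278), -0.11 in males (SE 0.06, unadjusted p = 0.130) and -0.093 over all libraries (SE 0.044, interval -0.19 to -0.0011, unadjusted p = 0.0476, adjusted p = 0.731). Reads of its antisense gene Dnmt3aos, which shares 133 exon bases with it, came to 10 in all female and 0 in all male libraries.

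Dnmt3b, the second de novo enzyme (chr2:153649450-153687730, plus strand), was at 15.9, 21.4, 20.0, 17.6 and 19.0 CPM in heterozygotes and at 15.4, 16.4, 15.0, 17.3 and 9.90 CPM in del/del females. All 5 del/del females were below 4 of the 5 heterozygous females, and library 5 was lowest by a wide margin. In males the values were 16.2, 20.0, 18.8 and 18.6 CPM in heterozygotes and 18.7, 21.0, 16.1 and 18.4 CPM in del/del libraries, with complete overlap. The female log2 fold change was -0.34 (SE 0.15, interval -0.66 to -0.018, unadjusted p = 0.0402, adjusted p = 0.975) and the male one 0.0084 (SE 0.10, interval -0.22 to 0.24, adjusted p = 0.9998). The difference between the sexes in this effect was 0.33 on the log2 scale (SE 0.19, interval -0.069 to 0.73, unadjusted p = 0.0988, adjusted p = 0.99994), so the effect was not shown to differ between females and males. No gene of 14017 was called in that interaction fit (0%) by edgeR, where 1.45% had an unadjusted p under 0.05, and DESeq2 called 4 and limma voom 0.

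Among the erasers, Tet1 (chr10:62804570-62899118, minus strand) had the lowest level per length of the 7 and the largest fold change over all libraries. It was at 21.7, 17.9, 17.1, 12.3 and 14.4 CPM in heterozygotes and at 15.5, 10.9, 14.8, 15.8 and 11.7 CPM in del/del females. In males it was at 14.9, 12.6, 14.4 and 10.5 CPM in heterozygotes and 10.9, 9.24, 9.71 and 12.1 CPM in del/del libraries. In females 3 heterozygous libraries were above all 5 del/del ones, and in males 3 heterozygous libraries were above all 4 del/del ones. The log2 fold change was -0.28 in females (SE 0.17, unadjusted p = 0.113), -0.32 in males (SE 0.14, interval -0.63 to -0.015, unadjusted p = 0.0415) and -0.30 over all libraries (SE 0.11, interval -0.53 to -0.068, unadjusted p = 0.0138, adjusted p = 0.529). The fitted ratio of del/del to heterozygous levels was 0.812 (interval 0.691 to 0.954), and it did not pass adjustment. The female log2 fold change was -0.37 without heterozygous library 4 and -0.17 without heterozygous library 1.

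Tet2, an eraser often mutated in aged and leukaemic blood (chr3:133463679-133544390, minus strand), was at 50.1, 36.0, 39.8, 38.1 and 32.6 CPM in heterozygotes and 45.9, 43.8, 42.2, 44.1 and 49.4 CPM in del/del females. All 5 del/del females were above 4 of the 5 heterozygous ones and below heterozygous library 1. The log2 fold change was 0.20 in females (SE 0.11, interval -0.043 to 0.43, adjusted p = 0.975) and 0.09 in males (SE 0.13, adjusted p = 0.9998), where heterozygous libraries ranged from 34.0 to 50.2 and del/del libraries from 38.2 to 52.0 CPM. Tet3 (chr6:83362373-83441678, minus strand), the TET gene with the highest level per length here, had group means of 142 to 151 CPM. Its log2 fold change was 0.05 in females (SE 0.08) and -0.05 in males (SE 0.10), and over all libraries it was 0.0067 (SE 0.064, interval -0.13 to 0.14, adjusted p = 0.984).

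**Figure D2:**
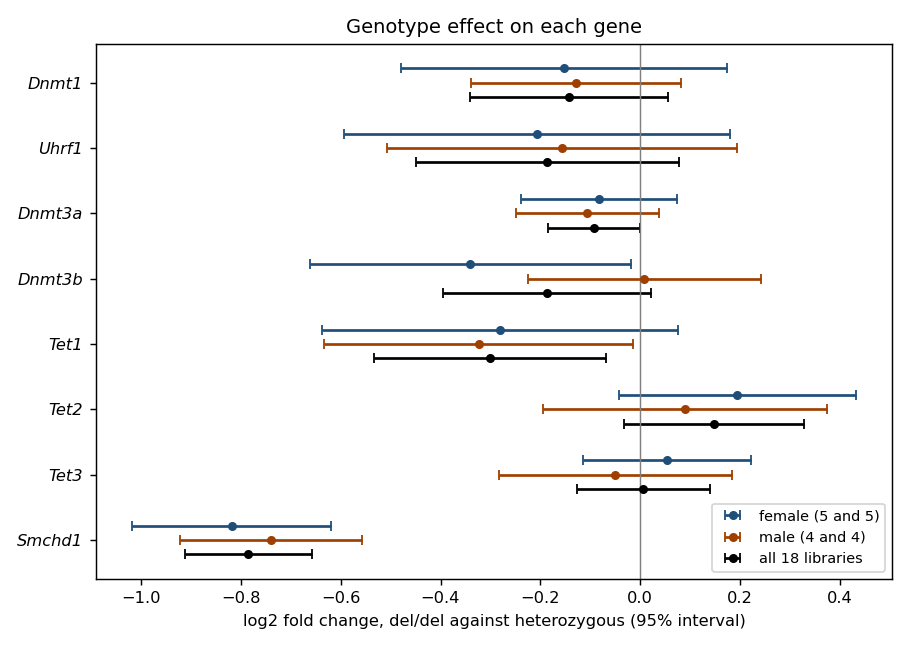
Log2 fold change of del/del against heterozygous libraries (horizontal axis, point with 95% interval) for each gene in females, males and all 18 libraries, from edgeR. The intervals of Smchd1 lie wholly below 0 in all 3 fits, and those of Dnmt3b in females, Tet1 in males and over all libraries, and Dnmt3a over all libraries also end below 0 without passing adjustment.

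Per kilobase of annotated exon (GENCODE M21 basic transcripts), the levels spanned about 2 orders of magnitude, with the maintenance pair on top. The counts rest on other gene bounds than these lengths for some genes, so the levels per length are approximate. Tet1 ends at 62899118 in the counts and at 62908996 in GENCODE M21, and Tet3 at 83441678 and 83459084. In heterozygous females Uhrf1 was at 105 ± 8.22 CPM per kilobase and Dnmt1 at 76.6 ± 6.67 (SD, n = 5). Uhrf1 was above Dnmt1 in 17 of 18 libraries, by a median of 1.27 times, and the ranges of both overlapped in every group except heterozygous females. Dnmt1 was above Tet3 in 18 of 18 libraries, by a median of 5.15 times. Tet3 (12.1 ± 0.912) and Dnmt3a (13.4 ± 0.701) could not be ordered with these lengths, Tet3 being higher in 10 of 18 libraries with ranges that overlapped in 3 of the 4 groups and lay apart in del/del males. With the longer comprehensive annotation Tet3 was higher in 17 of 18. Both were followed by Tet2 (4.27 ± 0.715) and Dnmt3b (4.34 ± 0.492), which could not be ordered either, since Tet2 was higher in 13 of 18 libraries with these lengths and in 1 of 18 with the comprehensive annotation. Tet1 was lowest at 1.16 ± 0.248, and Dnmt3b exceeded it in 18 of 18 libraries by a median of 4.35 times.

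**Figure D3:**
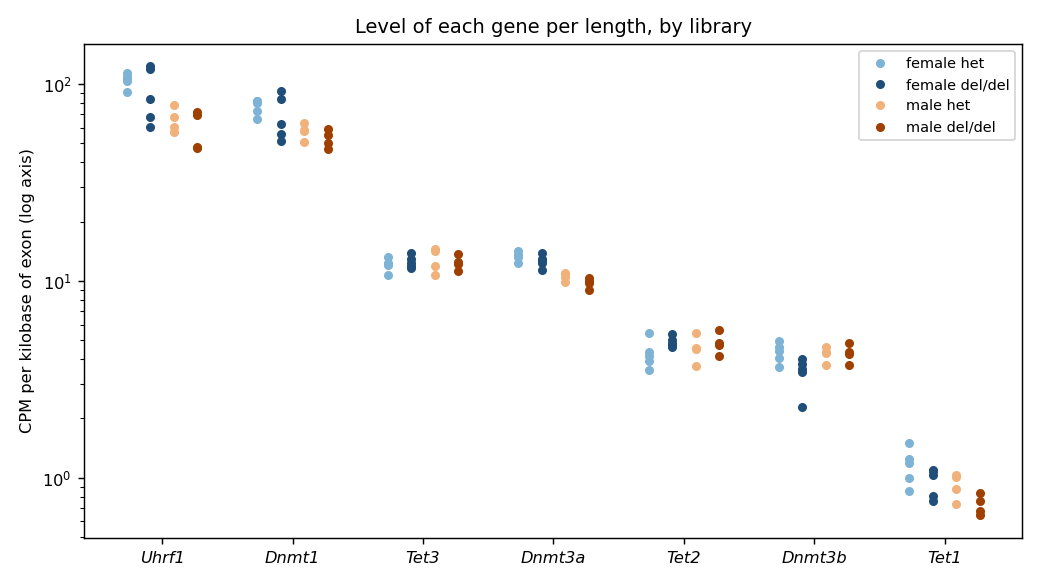
CPM per kilobase of exon (vertical log axis) of each gene in each of the 18 libraries, coloured by sex and genotype. Uhrf1 and Dnmt1 stand above Tet3 and Dnmt3a, which stand above Tet2 and Dnmt3b, with Tet1 lowest, in all 4 groups.

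Dnmt1 and Uhrf1 varied between libraries together with the genes of cell division. The cell cycle level of a library was taken as the mean log2 CPM of 36 listed genes, 18 of S phase (Mcm2, Pcna, Rrm2 and others) and 18 of mitosis (Mki67, Top2a, Aurkb and others), a list that holds none of the 7. With every value centred on the mean of its sex and genotype group, Dnmt1 correlated with this level over 18 libraries at Pearson's r = 0.975 (permutation p = 2e-05, adjusted p = 0.000105 over 7 relations; Spearman's rho 0.957, adjusted p = 0.00014). Uhrf1 did so at r = 0.976 (permutation p = 3e-05, adjusted p = 0.000105; rho 0.959, adjusted p = 0.00014). Without the 2 libraries farthest from the median, female del/del 5 and 2, r was 0.963 for Dnmt1 and 0.961 for Uhrf1. Within females (n = 10, exact permutation over 14400 arrangements) r was 0.987 and 0.989, each with an adjusted p of 0.00146. Within males (n = 8, exact permutation over 576 arrangements) r was 0.935 (adjusted p = 0.0608) and 0.966 (adjusted p = 0.0668). There rho was 0.905 (exact permutation, adjusted p = 0.0729) and 0.929 (adjusted p = 0.0486). How many of all tested genes followed this level as closely was not counted. Stage markers differed between libraries too. Female del/del 5 had a mature B sum of 12435 CPM and a pro-B and pre-B sum of 3354 CPM. Female del/del 2 had 5406 and 4773 CPM. The part of B cell stage in these relations was not tested.

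Dnmt3b and Dnmt3a followed the cell cycle level less closely, and Tet1, Tet2 and Tet3 had a negative r with it. Dnmt3b had r = 0.744 (permutation p = 0.00115, adjusted p = 0.00268; rho 0.645, adjusted p = 0.0175; 0.600 without the same 2 libraries), with 0.781 within females and 0.613 within males (exact permutation, adjusted p = 0.0104 and 0.409). By rank the relation within females did not pass (rho 0.673, exact permutation, adjusted p = 0.0852). Dnmt3a had r = 0.606 (permutation p = 0.0299, adjusted p = 0.0481; rho 0.589, adjusted p = 0.0527), but r was 0.315 without those 2 libraries, on which Pearson's r therefore rests. Within females it had r = 0.700 (exact permutation, adjusted p = 0.0699) and rho 0.830 (adjusted p = 0.0293), and within males r = 0.417 (exact permutation, adjusted p = 0.561). Tet2 had r = -0.402 (permutation p = 0.0344, adjusted p = 0.0481), with rho -0.465 missing the threshold (adjusted p = 0.0714), -0.392 without those libraries, and within the sexes -0.452 and -0.366 (exact permutation, adjusted p = 0.0699 and 0.561). Tet1 (r = -0.212, rho -0.311) and Tet3 (r = -0.325, rho -0.228) did not pass (permutation, adjusted p = 0.433 and 0.192 for r).

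**Figure D4:**
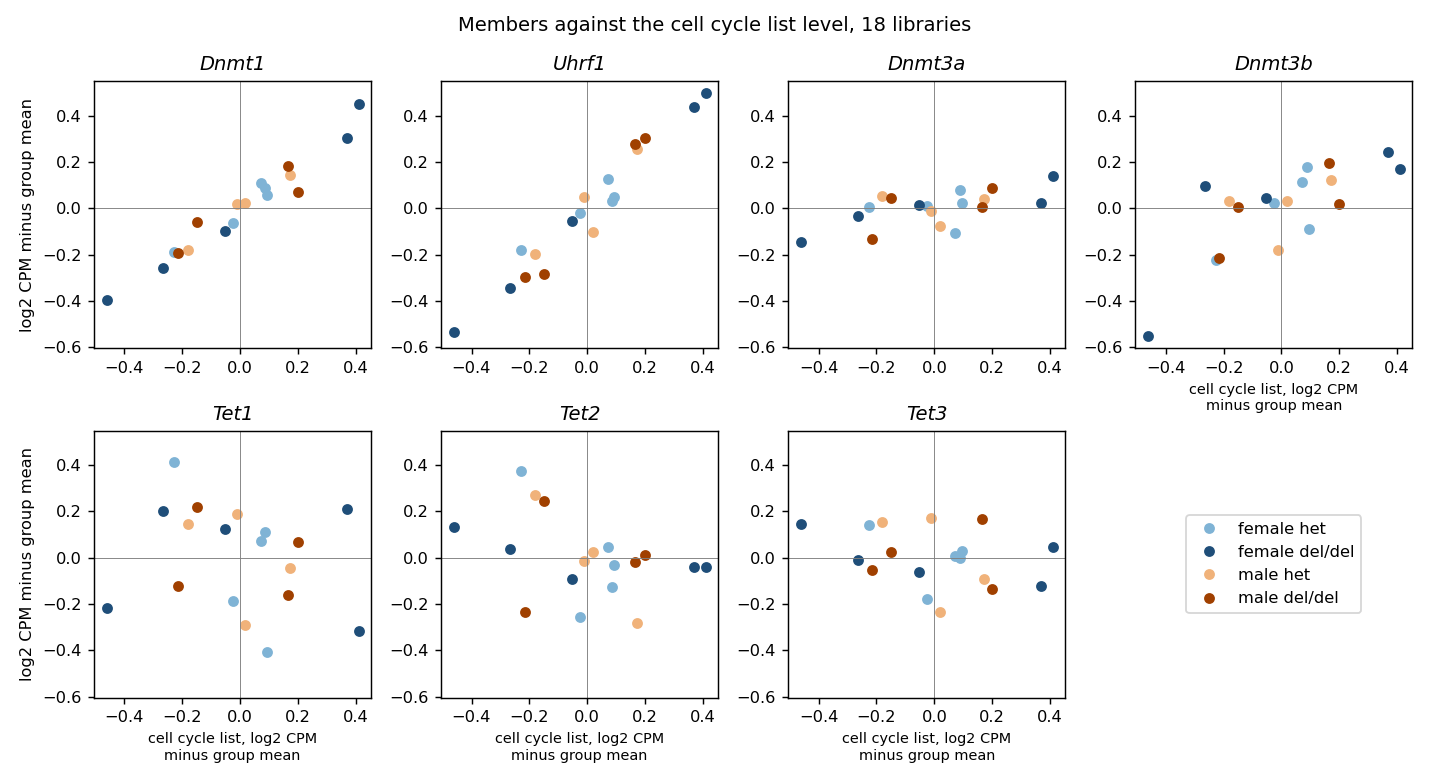
Log2 CPM of each gene minus its group mean (vertical axes) against the cell cycle list level minus its group mean (horizontal axes) in 18 libraries, coloured by group. The points of Dnmt1 (r = 0.975) and Uhrf1 (r = 0.976) lie along a line, while those of Tet1 (r = -0.212) are scattered.

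The cell cycle genes themselves were not called between the genotypes, although their log2 fold changes leaned one way. In females 18 of 18 S phase genes (median -0.20) and 18 of 18 mitosis genes (median -0.22) had a negative log2 fold change, against 51.2% of all tested genes and a median of -0.0044. In males it was 16 of 18 (median -0.12) and 18 of 18 (median -0.12), against 49.4% and a median of 0.0013. None was called in any fit. The genes of a list share libraries, so such counts, here and in lists further on, are not counts of independent results. The cell cycle level was 7.10 to 7.42 in heterozygous females. Female del/del libraries 2 and 4 were above that range (7.50 and 7.46), and libraries 1, 3 and 5 were below it (6.82, 7.04 and 6.63). Among the cell cycle genes with the smallest p was Cdc45, a part of the replicative helicase (female log2 fold change -0.30, SE 0.16, adjusted p = 0.975). Others were Aurkb, a mitotic kinase (female -0.26, SE 0.15, adjusted p = 0.975), and the kinesin Kif11 (male -0.31, SE 0.15, adjusted p = 0.9998).

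With the cell cycle level as a covariate, the fitted genotype effect over all libraries was 0.0035 for Dnmt1 (SE 0.039) and 0.00024 for Uhrf1 (SE 0.044), against -0.14 (SE 0.10) and -0.19 (SE 0.13) without it. That of Dnmt3b went from -0.19 (SE 0.10) to -0.073 (SE 0.084). Tet1 went from -0.30 to -0.34 (SE 0.12, adjusted p = 0.647), and Dnmt3a from -0.093 to -0.061 (SE 0.042). None of the 7 was called with the covariate. The cell cycle level was measured in the same libraries, and its genes leaned with genotype. This fit therefore cannot tell an effect of genotype from one of the cell cycle level.

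**Figure D5:**
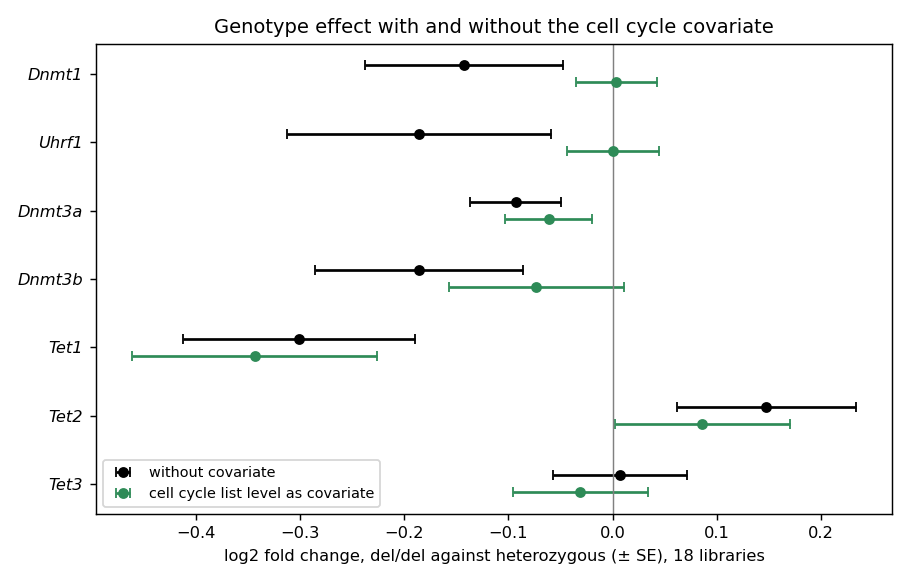
Log2 fold change of del/del against heterozygous libraries over all 18 libraries (horizontal axis, point ± SE), fitted without and with the cell cycle list level as covariate. With the covariate Dnmt1 (0.0035) and Uhrf1 (0.00024) lie near 0, and Tet1 is at -0.34 without passing adjustment.

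Among the 7 genes, the centred levels of Dnmt1 and Uhrf1 correlated at r = 0.944 over the 18 libraries, given as a description. Dnmt1 and Dnmt3b followed at 0.722 and Tet2 and Tet3 at 0.535, while Dnmt1 and Tet1 were at -0.224. Of 14016 other tested genes, those with centred levels most like Dnmt1 were 5730590G19Rik (r = 0.982), Ncapd2, a condensin subunit (0.972), and Lig1, the replicative DNA ligase (0.971). Those most like Uhrf1 were Ncaph, another condensin subunit (0.977), the kinesin Kif23 (0.976) and Rrm2, a subunit of ribonucleotide reductase (0.974). Those most like Dnmt3b were the transporter gene Abcg2 (0.928), Fgf13 (0.919) and Tbc1d19 (0.904). For Dnmt3a (Hspa12b, Eif1ad), Tet1 (Fam126b, Zfp871), Tet2 (Helz, Nsd1, Chd8) and Tet3 (Tor3a, Mx1, Tmem184b) the genes named, all among the 3 closest, had r between 0.794 and 0.855.

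The wider DNA methylation machinery was likewise without a called gene in any genotype fit. Of all tested genes 0.252% were called in females, 0.119% in males, 0.556% over all libraries and 0% in the interaction. With shares this small, the lack of a call in short lists says little about them. Of the partners of the maintenance and de novo enzymes, 6 of 9 passed the filter, with a median log2 fold change of -0.065 in females and -0.034 in males. Hells, a remodeller needed for methylation of repeats, was at -0.25 in females (SE 0.14, mean 124 ± 19.3 CPM in heterozygotes and 104 ± 20.3 CPM in deleted females), and its activator Cdca7 at -0.25 (SE 0.16), both with an adjusted p of 0.975. Of the 7 methyl-CpG readers all passed the filter, with medians of -0.025 and 0.0073. Among them Zbtb4, a zinc finger protein that binds methylated CpG, was at 0.23 in females (SE 0.19, adjusted p = 0.975) and 0.11 in males (SE 0.09, adjusted p = 0.9998).

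Of the genes that finish demethylation by base excision repair, 13 of 14 passed the filter, with medians of -0.040 in females and -0.057 in males. The stress-response gene Gadd45b, linked to active demethylation, was at 0.26 in females (SE 0.13, adjusted p = 0.975), and the repair scaffold Xrcc1 at -0.15 (SE 0.10, adjusted p = 0.975). Of the genes that regulate TET enzymes or set the supply of their cofactor, 6 of 7 passed (medians 0.025 and -0.061), with Ogt, which glycosylates proteins and binds TET enzymes, at 0.39 in females (SE 0.25, adjusted p = 0.975) and -0.05 in males (SE 0.19, adjusted p = 0.9998). All 10 genes of methyl donor supply passed (medians -0.078 and -0.017), with Mat2a, which makes S-adenosylmethionine, at -0.13 in females (SE 0.09, adjusted p = 0.975). Of 14 germline genes that promoter methylation is known to silence in somatic cells, 1, Sycp3, passed the filter, at 1.03 ± 0.239 CPM in heterozygotes and 0.664 ± 0.541 CPM in del/del females (log2 fold change -0.63, SE 0.59, adjusted p = 0.975). Their summed level stayed between 0.548 and 2.17 CPM in females and between 0.692 and 1.90 CPM in males.

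Marker genes of some other cell stages and types leaned with genotype, and their part in the values above was not tested. All 11 pro-B and pre-B genes had a negative log2 fold change in both sexes (medians -0.13 and -0.34), and 13 of 13 mature B genes in females and 12 of 13 in males a positive one (medians 0.14 and 0.085), with none called. All 10 erythroid genes with a row were negative (medians -0.88 and -0.68), none called. All 9 plasmacytoid dendritic cell genes were positive (medians 0.43 and 0.48), and their summed level was 407 to 860 CPM in heterozygotes and 440 to 1211 CPM in del/del females, and 262 to 319 and 253 to 453 CPM in males. Of these, Il3ra, the interleukin 3 receptor alpha chain, was called over all libraries (0.55, SE 0.08, adjusted p = 0.00111). Of 11 myeloid genes 8 in females and 11 in males were positive (medians 0.22 and 0.25), and of 10 T and NK cell genes 6 in females and 8 in males were negative (medians -0.25 and -0.20), with none called in either list. Plasma cell genes (4 tested, medians 0.090 and -0.096) and stem and progenitor genes (6 tested, medians -0.091 and -0.065) had none called. Every gene of the myeloid, T and NK cell, pro-B and pre-B, mature B, erythroid and plasmacytoid dendritic cell lists that had a row was detected in every library.

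Between the sexes, 4 of the 7 genes were lower in male libraries, in a comparison added after the values had been seen. Sex and deposited table cannot be told apart here, and 42.6% of the 14017 tested genes were called and 21.5% were called lower in males, so the count of 4 is to be read against a broad difference. Over all 18 libraries with genotype as a term, the log2 fold change of male against female libraries was -0.61 for Uhrf1 (SE 0.13, adjusted p = 0.000815), -0.37 for Dnmt1 (SE 0.10, adjusted p = 0.00439), -0.34 for Tet1 (SE 0.11, adjusted p = 0.0187) and -0.33 for Dnmt3a (SE 0.045, adjusted p = 1.09e-05). Dnmt3b (0.18, SE 0.10, adjusted p = 0.155), Tet2 (0.06, SE 0.09, adjusted p = 0.621) and Tet3 (0.06, SE 0.06, adjusted p = 0.451) were not called. The cell cycle lists moved with sex too: 16 of 18 S phase and 18 of 18 mitosis genes were lower in males, with medians of -0.45 and -0.71, and 1 S phase gene was higher. Of the stage markers, 7 of 11 pro-B and pre-B genes were lower and 13 of 13 mature B genes higher in males, and 8 of 9 plasmacytoid dendritic cell genes were lower. With the cell cycle level as covariate, Dnmt1 was at 0.12 (adjusted p = 0.166), Uhrf1 at 0.057 (adjusted p = 0.608) and Tet1 at -0.48 (adjusted p = 0.0789), none called, whereas Dnmt3a remained called at -0.23 (adjusted p = 0.0161) and Dnmt3b was called higher in males at 0.55 (adjusted p = 0.00700). The cell cycle level itself was 6.38 to 6.89 in males, 7.10 to 7.42 in heterozygous females and 6.63 to 7.50 in del/del females. Sex and this level overlapped little, so the fit with this covariate cannot tell their parts well apart. With the Malat1 level as covariate Tet1 was at -0.17 (adjusted p = 0.302) and no longer called.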

How the data were processed

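Females and males came in separate tables in which the authors deposited whole-number read counts of each gene in each library. The submitters' processing notes name TopHat, Trim Galore, FastQC, bcl2fastq and edgeR 3.32.1 and the builds mm10 and GRCm38. How reads were counted, on which annotation and with which strand setting is not given in the sources used here. Overlapping antisense genes cannot therefore be told apart. Counts are per gene, not per isoform. The 56 rows without a gene identifier had a symbol and stayed in the fits (at most 0.0846% of counts). The 2 columns of group means per table were not used. Per the file headers, the authors also deposited their own log2 fold changes and p-values, quoted only in the closing section.

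Counts were tested in R 4.3.3 with edgeR 4.0.16: filterByExpr (minimum count 10, minimum total 15), TMM factors and the quasi-likelihood test, with calls at a Benjamini-Hochberg adjusted p under 0.05, for females, males, all 18 libraries with sex as a term, and the interaction. The SE is the log2 fold change divided by the square root of F, and log2 CPM used a prior count of 2. Alternatives were DESeq2 1.42.0, limma 3.58.1 with voom, RLE factors, no filter, covariates, each library left out, and a block of nearest animal numbers. The labels state no pairs. Deviations of nearest-numbered animals correlated at 0.104 to 0.328 in the 4 male pairs and at -0.043 to 0.286 in the 5 female pairs. Correlations permuted libraries within groups, two-sided. The scripts were tested on simulated counts. The 7 genes and the gene lists were chosen with earlier results of these data known. Genes named from a list were those called in any genotype fit and some of the up to 3 with the smallest p in the female or male fit, and a few more are named only to say what a list holds. Some genes that this rule names are not reported here. Protein sequences were not used here. The p-values of fold changes set an effect against the variation between libraries. With 1 library per animal, differences between animals and between library preparations cannot be told apart in it.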

Additional observations from a re-analysis of the deposited data

How the results depend on the processing

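Of 567 refits of the 7 genes in the 4 genotype fits, 0 called a gene, 525 kept the sign and 42 reversed it. With the cell cycle level as covariate the reversed values were 0.043 (Dnmt1) and 0.017 (Uhrf1) in females, 0.0035 (Dnmt1), 0.00024 (Uhrf1) and -0.031 (Tet3) over all libraries, and -0.067 (Dnmt1) and -0.072 (Uhrf1) in the interaction. With the Malat1 level they were 0.042 (Dnmt1, females), -0.023 (Tet3, all libraries), and -0.065 (Dnmt1), -0.032 (Uhrf1) and 0.0036 (Tet1) in the interaction. For Dnmt3b in males they were -0.0012 with DESeq2 and -0.011 with voom. Leaving out 1 library each reversed Dnmt3b (-0.063 to 0.070), Tet2 (-0.0027 to 0.19) and Tet3 (-0.13 to 0.0047) in males, Tet3 over all libraries (-0.020 to 0.035), and Dnmt1 (-0.081 to 0.13), Uhrf1 (-0.079 to 0.17) and Tet1 (-0.18 to 0.032) in the interaction. With no change of sign, leaving out 1 library gave ranges in females of -0.11 to -0.047 (Dnmt3a), -0.40 to -0.23 (Dnmt3b), 0.13 to 0.30 (Tet2) and 0.0094 to 0.092 (Tet3), in males of -0.20 to -0.074 (Dnmt1), -0.26 to -0.066 (Uhrf1), -0.14 to -0.070 (Dnmt3a) and -0.41 to -0.27 (Tet1), and over all libraries of -0.21 to -0.095 (Dnmt1), -0.25 to -0.12 (Uhrf1), -0.23 to -0.12 (Dnmt3b) and -0.35 to -0.24 (Tet1). The cause was not tested.

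DESeq2 called 92 genes in females, 49 in males, 141 over all libraries and 4 in the interaction, against 34, 16, 78 and 0 with edgeR. Left-out libraries gave 5 to 22 calls in males, with 5 without heterozygous 1 or del/del 3, 6 without del/del 1, 9 without heterozygous 4 and 10 without del/del 4, and 26 to 41 in females. The replicate block of nearest animal numbers gave 23, 13 and 88 calls in females, males and all libraries, and changed no call of the 7 genes or of Smchd1. Between the sexes 5977 genes were called, and 1819 with the cell cycle covariate, with which Dnmt1 (0.12), Uhrf1 (0.057), Tet2 (-0.14) and Tet3 (-0.050) reversed.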

Other observations

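In the authors' deposited table, 35 of 13498 genes in females and 16 of 13409 in males had an adjusted p under 0.05, and none of the 7 methylation genes was among them. The largest log2 fold changes of the 7 in the authors' deposited table were those of Dnmt3b in females (-0.33, unadjusted p = 0.0443, adjusted p = 0.976) and Tet1 in males (-0.32, unadjusted p = 0.0443, adjusted p = 0.9998).

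Other genes of DNA methylation also differed between male and female libraries, where 42.6% of all tested genes did. Of the enzymes' partners 3 of 6 tested were lower in males, of the demethylation and repair genes 5 of 13 were lower and 2 higher, of the TET regulators 2 of 6 were lower and 1 higher, of the readers 1 of 7 was lower and 2 were higher, and of the methyl donor genes 2 of 10 were lower and 2 higher. The median log2 differences of these lists ran from -0.21 to 0.018.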
